A study of Mus musculus with 20 samples.

Results

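The iron, heme and globin genes were read from every probe of the array whose annotated symbol was *Alas1*, *Alas2*, *Hbb-bt*, *Hba-a1*, *Slc40a1*, *Tfrc*, *Slc11a2*, *Fth1*, *Hmox1* or *Hamp*. These 10 genes had 18 probes, of 45281 probes and 19057 named genes on the array. They were divided by role. *Alas2*, *Hbb-bt* and *Hba-a1* (6 probes) are products of maturing red cells and reach a heart extract mainly with blood. The other 7 genes (12 probes) handle iron and heme in many tissues, the heart included.

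Total RNA of the cardiac ventricle was measured on Illumina bead chips, with 1 array per mouse. All mice were male and carried loxP-flanked alleles of both *Dnmt3a* and *Dnmt3b*, the genes of the *de novo* DNA methyltransferases. DKO mice also carried a Cre recombinase driven by the *Myl7* (atrial myosin light chain 2) promoter, which removes the flanked exons in cardiomyocytes only, so the other cells of the ventricle keep both genes. CTL mice carried the same alleles without Cre. Mice underwent a sham operation or transverse aortic constriction (TAC), a band around the aorta that overloads the left ventricle, at 10 to 12 weeks of age, and hearts were taken 4 weeks later. Each genotype had 4 sham and 6 TAC hearts. Nothing given here says that mice were paired.

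Iron enters cells as transferrin bound to the transferrin receptor (*Tfrc*) and leaves the endosome through the divalent metal transporter (*Slc11a2*). It is stored in ferritin, whose heavy chain is encoded by *Fth1*, and leaves the cell through ferroportin (*Slc40a1*), which the peptide hormone hepcidin (*Hamp*) removes from the membrane. Heme is built by a pathway that begins with aminolevulinate synthase, in the housekeeping form *Alas1* or the erythroid form *Alas2*, and is broken down by heme oxygenase 1 (*Hmox1*). Low iron stabilises *Tfrc* mRNA and blocks translation of ferritin mRNA through iron regulatory proteins, so mRNA and protein of these genes need not move together. Reticulocytes, the youngest red cells in blood, have lost the nucleus but still carry globin and *Alas2* mRNA.

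The promoters of the blood-derived genes are shown because these genes moved together across the sham arrays. Their relations across the TAC arrays did not pass the test, as given below. RefSeq promoters of the mouse build GRCm38.p6 were matched for 7 of the 10 genes, with 10 transcription starts. *Slc40a1*, *Hmox1* and *Slc11a2* were not matched. The 250 bases before the start were searched on both strands for GATA motifs (AGATAA or AGATAG, together with TGATAA or TGATAG), the site type of the red cell regulator GATA1, for CACCC, the core of sites for the erythroid factor KLF1, and for CCAAT. Matches are in capitals and every sequence runs 5′ to 3′ on the strand of its gene. The 3 windows lie at chrX:150547167-150547416 (plus strand), chr11:32283422-32283671 (plus strand) and chr7:103813924-103814173 (minus strand), each directly upstream of the first exon.
Alas2 promoter: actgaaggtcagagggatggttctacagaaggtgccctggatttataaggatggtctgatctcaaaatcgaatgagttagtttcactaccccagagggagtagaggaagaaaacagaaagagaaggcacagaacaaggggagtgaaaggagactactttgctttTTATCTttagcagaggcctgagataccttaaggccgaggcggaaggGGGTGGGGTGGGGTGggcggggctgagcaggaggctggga
Hba-a1 promoter: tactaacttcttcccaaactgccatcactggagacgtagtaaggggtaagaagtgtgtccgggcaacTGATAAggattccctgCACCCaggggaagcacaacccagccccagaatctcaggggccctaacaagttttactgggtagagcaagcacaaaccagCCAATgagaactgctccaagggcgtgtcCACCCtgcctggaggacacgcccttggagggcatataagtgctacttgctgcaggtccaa
Hbb-bt promoter: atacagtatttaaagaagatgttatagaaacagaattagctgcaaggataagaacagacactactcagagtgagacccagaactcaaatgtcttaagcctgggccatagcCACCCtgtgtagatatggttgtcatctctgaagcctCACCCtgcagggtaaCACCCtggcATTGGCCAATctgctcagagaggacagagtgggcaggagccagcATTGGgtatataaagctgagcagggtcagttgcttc
The *Alas2* window held 1 GATA and 3 CACCC motifs, all on the opposite strand. That of *Hba-a1* held 1 GATA, 2 CACCC and 1 CCAAT, and that of *Hbb-bt* held 0 GATA, 3 CACCC and 3 CCAAT. In *Hbb-bt*, 2 of the CCAAT matches lie side by side on opposite strands. Of 32851 promoters searched in the same way, 26.5% held at least 1 GATA motif, 52.0% at least 1 CACCC and 33.8% at least 1 CCAAT. At least 3 CACCC were found in 6.92% and at least 3 CCAAT in 2.79%. Among the other members, 6 of 7 starts had no GATA motif, and the start of *Hamp* had 1. A match of letters is not a measured binding site.

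The sham and the TAC arrays were quantile normalized by the authors as separate sets, with medians of 47.5 and 58.6. All 20 arrays were therefore brought to 1 distribution before the comparison of TAC with sham hearts, and an effect of surgery and an effect of the array set cannot be told apart there. Intensities below are the normalized linear values. The 95th percentile of 1504 probes for olfactory and vomeronasal receptors, genes that a heart should not express, was 57.6 and served as the background level. On average 16 of the 18 member probes lay above it. All 10 cardiomyocyte markers were above background. The 3 *Dnmt3a* probes and *Dnmt3b* probe ILMN_3114377 had group means below it, the brightest *Dnmt3b* probe, ILMN_1252310, had group means from 101 to 112, and none of them was called between genotypes. Where these probes lie relative to the deleted exons is not known here, so they do not check the genotype.

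In the limma model of all probes, a probe was called different where the adjusted p was below 0.05 and the fold change exceeded 1.5. Between DKO and CTL hearts, 0 of the 18 member probes were called after sham operation, with 3 at an unadjusted p under 0.05, and 0 after TAC, with 2 at an unadjusted p under 0.05. Of all probes, 0.102% were called in sham and 0.144% in TAC hearts. Between TAC and sham hearts, 5 member probes were higher and 1 was lower in CTL mice, against 1.76% and 3.4% of all probes. In DKO mice 5 were higher and 2 lower, against 2.46% and 4.27% of all probes. The share of all probes without overlap of TAC and sham hearts was not computed. Such separation is given below as a description only. The difference between the surgery effects of both genotypes was called for 0 of the 18 probes, with 0 at an unadjusted p under 0.05, and for 0.00221% of all probes.

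Counted by gene, with the probe of the highest mean for each, 4 of the 10 genes were higher and 0 lower after TAC in either genotype. These were *Alas2*, *Hbb-bt*, *Hba-a1* and *Slc11a2*. Over all genes, 2.74% were higher and 4.2% lower in CTL hearts, and 3.99% were higher and 5.17% lower in DKO hearts. The median log2 fold change after TAC was 0.92 in CTL and 0.64 in DKO hearts over the 6 blood-derived probes. It was 0.00 and 0.09 over the 12 other member probes, beside 0.01 and 0.02 over all probes. This contrast of blood-derived and other members depended on the scale. With the deposited values only centred on the median of each array, 3 member probes were higher and 3 lower in CTL hearts, and 0 were higher and 4 lower in DKO hearts.

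**Figure D1:**
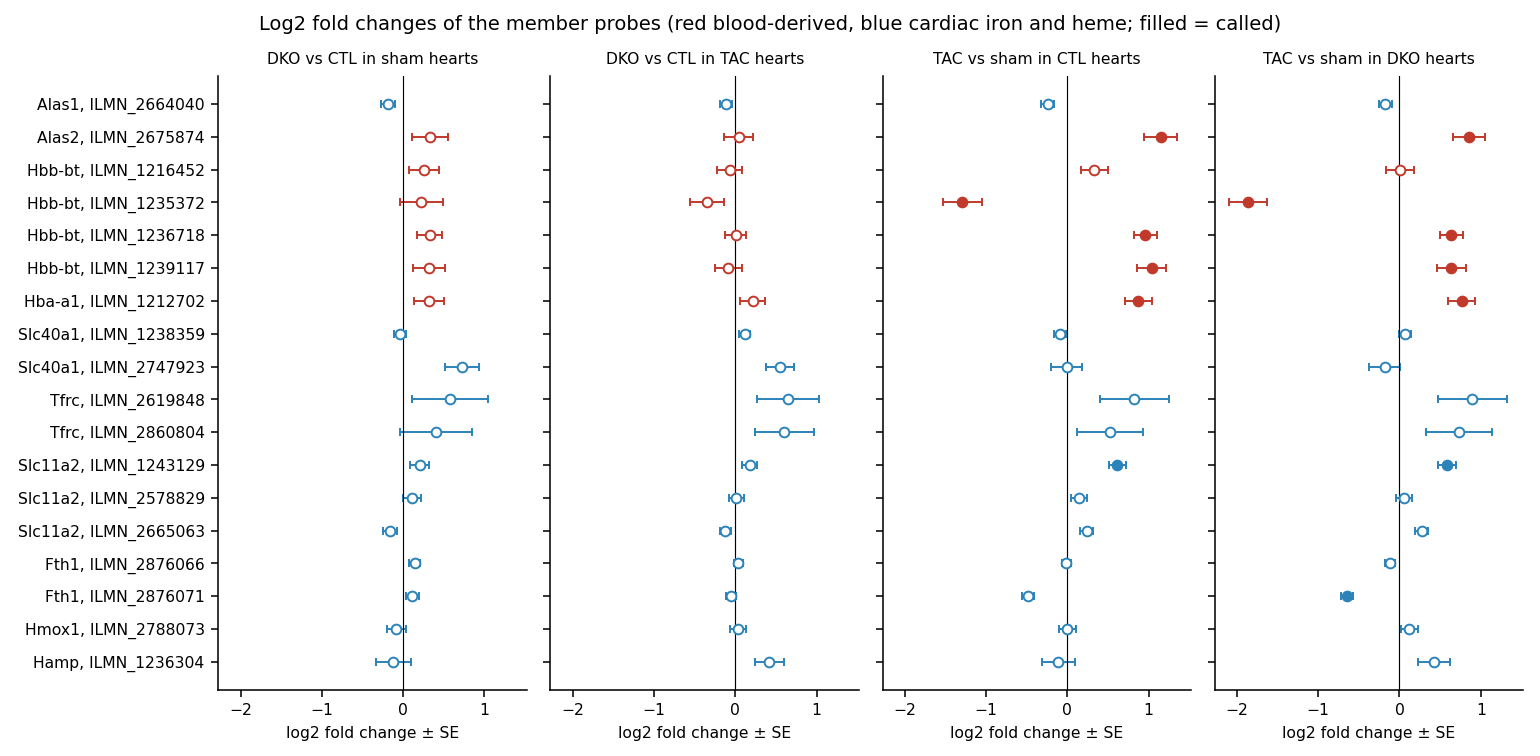
Log2 fold change of each member probe (points, filled where called, with bars for the standard error of the limma model) in the genotype and surgery comparisons, with blood-derived genes in red and the others in blue. After TAC the probes of *Alas2* and *Hba-a1* and 3 of the 4 *Hbb-bt* probes lie above 0 in CTL hearts, while probe ILMN_1235372 of *Hbb-bt* lies at -1.29.

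*Alas2*, which commits the maturing red cell to heme synthesis, was higher after TAC in both genotypes. Its intensity (probe ILMN_2675874) was 233, 239.9, 370.3 and 185 in the 4 sham CTL hearts. TAC CTL hearts ranged from 405 to 784 with a median of 557. Every TAC CTL heart was above every sham CTL heart, with a mean of 563 ± 129 (SD, n = 6) against 257 ± 79.2 (SD, n = 4). The fold change was 2.22 (log2 fold change 1.15 ± 0.20 SE, limma adjusted p = 0.000166).

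In the sham DKO hearts *Alas2* measured 237, 246, 303 and 552. TAC DKO hearts ranged from 479 to 656 with a median of 586. Sham DKO replicate 4 lay inside the TAC range and the other 3 below it. The fold change was 1.81 (log2 fold change 0.86 ± 0.20 SE, limma adjusted p = 0.00234), and centred on array medians the log2 fold change was 0.38 (limma adjusted p = 0.168). Genotype made no called difference, with a log2 fold change of DKO over CTL of 0.33 in sham (limma adjusted p = 0.941) and 0.04 in TAC hearts (limma adjusted p = 0.968). The surgery effects of the genotypes differed by -0.29 on the log2 scale (limma adjusted p = 0.947).

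*Hba-a1* encodes the alpha chain of adult hemoglobin and was higher after TAC too. Its intensity was 11277, 14544, 16608 and 7131 in sham CTL hearts and 12200.5, 13464, 13338 and 21495 in sham DKO hearts. TAC CTL hearts ranged from 18786 to 23464 with a median of 22634, and TAC DKO hearts from 22438 to 26643 with a median of 25400.2. TAC and sham hearts did not overlap in either genotype, and sham CTL replicate 4 and sham DKO replicate 4 were again the lowest and the highest sham hearts of their groups. The fold change was 1.83 in CTL (log2 fold change 0.87 ± 0.17 SE, limma adjusted p = 0.000433) and 1.70 in DKO hearts (0.77 ± 0.17 SE, limma adjusted p = 0.00121). Centred on array medians these log2 fold changes were 0.50 and 0.42, below the fold of 1.5. *Hba-a1* and its duplicate *Hba-a2* are near-identical, so the probe may read both.

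The brightest *Hbb-bt* probe, ILMN_1236718, measured an adult beta chain of hemoglobin at 11520.2, 14666, 14923 and 7849 in sham CTL hearts. TAC CTL hearts ranged from 20078 to 24869 with a median of 23658, all above the sham CTL hearts. The log2 fold change was 0.96 ± 0.14 SE (limma adjusted p = 2.84e-05). Sham DKO hearts measured 12272, 13595, 14544 and 20078, and TAC DKO hearts ranged from 18786 to 25820.0 with a median of 23429. Only sham DKO replicate 4 reached the TAC range of its genotype. The log2 fold change in DKO hearts was 0.64 ± 0.14 SE (limma adjusted p = 0.00166), and 0.28 when centred on array medians (limma adjusted p = 0.141).

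**Figure D2:**
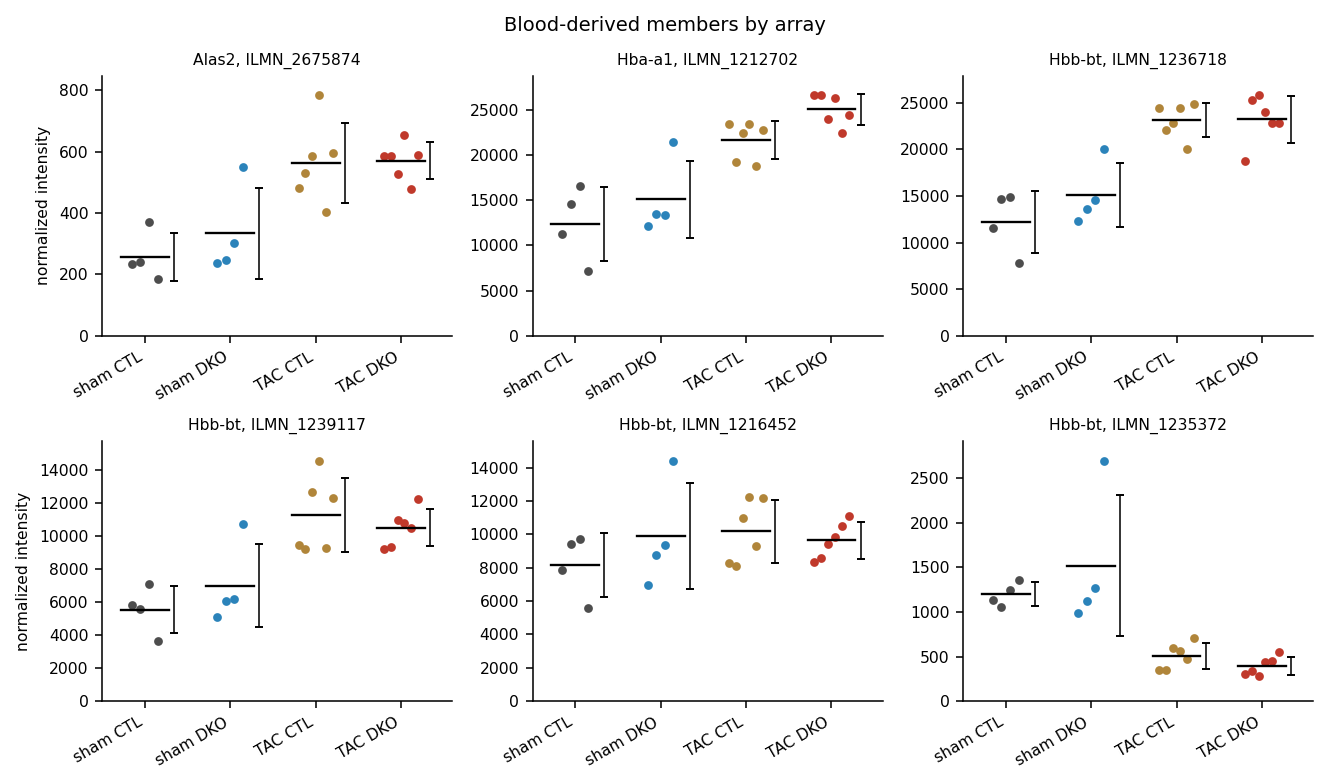
Normalized intensity (linear axis) of the 6 probes of *Alas2*, *Hba-a1* and *Hbb-bt* on each array (points), by surgery and genotype, with the group mean as a horizontal line and the SD as a bar beside it. Sham DKO replicate 4 is the highest sham array for *Alas2*, at 552, and for *Hba-a1*, at 21495.

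The 4 *Hbb-bt* probes differed in their change after TAC. Deviations of their pairs from the group means had r from 0.29 (ILMN_1235372 with ILMN_1236718) to 0.95 (ILMN_1216452 with ILMN_1239117) over 20 arrays. Probe ILMN_1239117 was higher after TAC, at 11239 ± 2241 (SD, n = 6) against 5538 ± 1421 (SD, n = 4) in CTL hearts and at 10486 ± 1125 against 6989 ± 2518 in DKO hearts (limma adjusted p = 0.000143 and 0.00944). Probe ILMN_1216452 was not called, with log2 fold changes of 0.33 and 0.01 (limma adjusted p = 0.181 and 0.981). Probe ILMN_1235372 was lower after TAC. It measured 1132, 1059.9, 1249 and 1359.5 in sham CTL hearts and 346 to 711 with a median of 518 in TAC CTL hearts. Sham DKO hearts measured 989.7, 1121, 1271 and 2699, and TAC DKO hearts 286 to 553 with a median of 383. The groups did not overlap, with log2 fold changes of -1.29 ± 0.24 SE and -1.86 ± 0.24 SE (limma adjusted p = 0.000261 and 2.12e-06).

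The mouse has several near-identical adult beta-globin genes, and a probe annotated to one may read the others. The array held 11 probes for *Hbb-bt*, *Hbb-bs* and *Hbb-b2* together. After TAC, 6 were higher, 1 lower and 4 not called in CTL hearts, and 5 were higher, 2 lower and 4 not called in DKO hearts. The other probe called lower was ILMN_2544056 of *Hbb-bs*, at -0.94 in DKO hearts (limma adjusted p = 0.000985) and -0.41 in CTL hearts (limma adjusted p = 0.164). None of the 11 was called between genotypes. Probes of 1 gene that were called in opposite directions were found elsewhere on the array too, for 18 of 185 genes with at least 2 called probes in CTL hearts and for 29 of 250 in DKO hearts. The direction stated for *Hbb-bt* is that of its brightest probe.

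**Figure D3:**
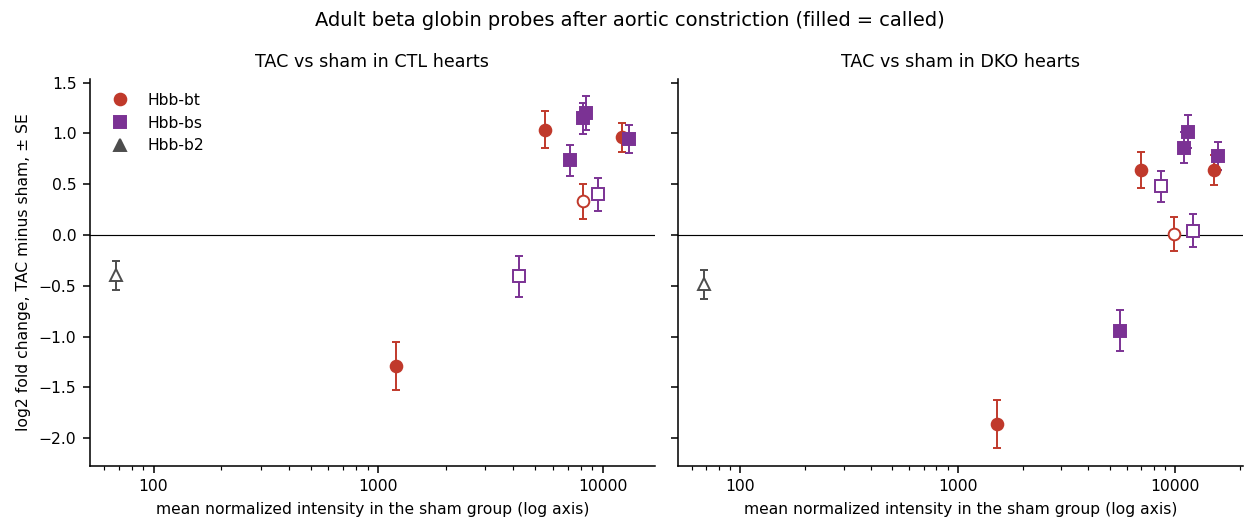
Log2 fold change after TAC (with the standard error of the limma model) of the 11 probes annotated to adult beta-globin genes, against their mean intensity in the sham group (log axis), in CTL and DKO hearts. Filled symbols were called. Probe ILMN_1235372 of *Hbb-bt* is lower in both genotypes, at -1.29 and -1.86.

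Other red cell genes were read from a list of 26, of which 13 lay above background. Of the 23 genes that are not members, 2 were higher and 0 lower after TAC in both genotypes, and their median log2 fold change was -0.01 in CTL and 0.01 in DKO hearts. These were *Hbb-bs*, with 0.95 and 0.78, and *Slc4a1*, the anion exchanger of the red cell membrane, whose log2 fold change was 0.91 in CTL and 0.98 in DKO hearts (limma adjusted p = 0.000625 and 0.000206). The red cell regulators *Klf1* and *Gata1* and the red cell genes *Car1*, *Rhag* and *Hemgn* lay at about background (named after their values were seen). They do not stand for the list, of which 13 of 26 genes lay above background. The 5 embryonic and fetal globins all lay below it and 0 were called. The summed intensity of the whole red cell list, members included, ranged from 26269.7 to 48810.3 in sham CTL hearts, 38198.3 to 66579.2 in sham DKO hearts, 62902.1 to 76580.2 in TAC CTL hearts and 72061.5 to 81278.1 in TAC DKO hearts. This sum mostly repeats the bright globin probes. *Hbb-bs*, *Hba-a1* and *Hbb-bt* had means of 13105, 12390 and 12239 in sham CTL hearts and 24841, 21698 and 23146 in TAC CTL hearts. Of 14 platelet and granulocyte markers, other RNA that blood carries, 0 were higher and 1 lower after TAC, and the median log2 fold change was 0.10 in CTL and 0.02 in DKO hearts. The 1 was *Pf4* (platelet factor 4, also made by some tissue macrophages), with -1.01 and -1.39. In whole ventricle, more red cells and more RNA per red cell cannot be told apart.

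Within the sham set the blood-derived genes varied together from array to array. Across the 8 sham arrays *Hbb-bt* and *Hba-a1* had r = 0.987 and rho = 0.976 (exact permutation p = 4.96e-05, adjusted 0.000992 over 20 relations). *Alas2* had r = 0.867 and rho = 0.929 with *Hbb-bt* (exact permutation p = 0.00580, adjusted 0.0387) and r = 0.885 and rho = 0.905 with *Hba-a1* (exact permutation p = 0.00437, adjusted 0.0387). Without the 2 arrays farthest from the median on the x axis, r was 0.893, 0.867 and 0.805 over 6 arrays, and 0 of these relations passed. Across the 12 TAC arrays r was 0.261, 0.330 and 0.559 (permutation p adjusted 0.554, 0.491 and 0.196). Of the 14 relations between an iron member and a blood index of these genes, 0 passed.

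Likeness over all 20 arrays was described by the correlation of deviations from the group means. The genes most like *Alas2* were *Hbb-bt* (0.87), *Hbb-bs* (0.85), *Hba-a1* (0.81), *Cdkl2* (0.79) and *Nifk* (0.74). The points share the array and its blood content, so no p is given.

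Ferritin heavy chain, *Fth1*, the iron store of the cell, had a probe that was lower after TAC and another that was not. Probe ILMN_2876071 measured 24484, 21793, 22438 and 24484 in sham CTL hearts and 15634 to 18168 with a median of 16609 in TAC CTL hearts. It measured 25820.0, 22831, 23464 and 28735 in sham DKO hearts and 14329 to 18168 with a median of 16427 in TAC DKO hearts. TAC and sham hearts did not overlap. The log2 fold change was -0.64 ± 0.07 SE in DKO hearts (limma adjusted p = 5.27e-07), where the probe was called. In CTL hearts it was -0.48 ± 0.07 SE (limma adjusted p = 3.32e-05), which passed the test of difference but not the fold of 1.5.

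Probe ILMN_2876066 of *Fth1* measured 20287 ± 139 (SD, n = 4) in sham CTL, 22469 ± 2243 (SD, n = 4) in sham DKO, 20145 ± 747 (SD, n = 6) in TAC CTL and 20705 ± 1137 (SD, n = 6) in TAC DKO hearts. Its log2 fold changes after TAC were -0.01 and -0.11 (limma adjusted p = 0.928 and 0.169). Centred on array medians they were -0.38 and -0.45 (limma adjusted p = 1.08e-05 and 6.80e-07), lower but under the fold of 1.5, so the contrast of the probes depended on the scale. Deviations of both probes from the group means had r = 0.446 over 20 arrays. Because quantile normalization gives each rank the same value on every array, equal intensities on several arrays mean an equal rank there. The ferritin light chain, *Ftl1*, was lower after TAC by the probe of its highest mean, from 2908 to 1302 in CTL and from 2602 to 1010.1 in DKO hearts (log2 fold change -1.18 and -1.38, limma adjusted p = 3.65e-07 and 2.65e-08).

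The transferrin receptor, *Tfrc*, was not called in any comparison. Probe ILMN_2860804 measured 781, 648, 531 and 586 in sham CTL hearts and 979.7, 879, 840.0 and 665 in sham DKO hearts. TAC CTL hearts ranged from 377 to 2575 with a median of 766, and TAC DKO hearts from 834 to 2331 with a median of 1339. TAC CTL replicates 1 (2575) and 4 (2279) stood above the other 4 hearts of that group. Log2 fold changes after TAC were 0.53 in CTL and 0.73 in DKO hearts (limma adjusted p = 0.404 and 0.197), and those of DKO over CTL were 0.40 and 0.61 (limma adjusted p = 0.981 and 0.662).

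The second *Tfrc* probe, ILMN_2619848, followed the first with r = 0.99 for deviations from the group means. It gave 539 ± 76.6, 809.8 ± 142, 1271 ± 1048 and 1634 ± 786 (SD, n = 4, 4, 6 and 6) in CTL and DKO hearts after sham operation, then in CTL and DKO hearts after TAC. With only the sham DKO and TAC DKO hearts in the model, both probes were called higher after TAC in DKO hearts (0.90 and 0.73, limma adjusted p = 0.0204 and 0.0276). That fit no longer held the TAC CTL hearts, whose SD was the widest. With the replicate number as a block shared across surgeries, ILMN_2619848 was called too (1.15, limma adjusted p = 0.0378).

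*Slc11a2*, which passes iron out of the endosome, was higher after TAC by its brightest probe, ILMN_1243129. It measured 221, 232, 253 and 221 in sham CTL hearts and 288 to 492 with a median of 345 in TAC CTL hearts. Sham DKO hearts measured 258, 295, 255 and 263, and TAC DKO hearts 358 to 445 with a median of 402. TAC and sham hearts did not overlap in either genotype. The fold change was 1.53 in CTL (log2 fold change 0.62 ± 0.11 SE, limma adjusted p = 0.000131) and the log2 fold change was 0.59 ± 0.11 SE in DKO hearts (limma adjusted p = 0.000166), both just past the fold of 1.5. Centred on array medians these log2 fold changes were 0.15 and 0.11 (limma adjusted p = 0.355 and 0.490).

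The *Slc11a2* call was lost in 7 of 30 other settings in CTL and in 10 of 30 in DKO hearts. Leaving out TAC CTL replicate 1 gave 0.52 and leaving out replicate 4 gave 0.58, and both fell short of the fold. In DKO hearts, leaving out sham DKO replicate 1, 3 or 4 or TAC DKO replicate 1, 3 or 4 gave 0.56 to 0.58, again short of the fold. TAC CTL replicates 1 and 4 were also the highest hearts of their group for *Tfrc*. With the blood index as a covariate, *Slc11a2* was not called in either genotype (log2 fold change 0.46 and 0.47, limma adjusted p = 0.125 and 0.0338). Probe ILMN_2665063 had log2 fold changes of 0.24 and 0.27 (limma adjusted p = 0.0319 and 0.0112), under the fold of 1.5, and ILMN_2578829 lay close to background at 0.14 and 0.05. By probe ILMN_1243129, *Slc11a2* was the gene most like *Tfrc*, with r = 0.80 for deviations from the group means over 20 arrays. Without the 2 arrays farthest from the median it was 0.68. Probes ILMN_2665063 and ILMN_2578829 of *Slc11a2* had r = 0.38 and 0.37 with *Tfrc* over 20 arrays, so the likeness rests on the brightest probe. The pair of *Slc11a2* and *Tfrc* was singled out after its values were seen.

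Ferroportin, *Slc40a1*, the known iron exporter of cells, was the member with the largest genotype difference in sham hearts. Probe ILMN_2747923 measured 1158, 848, 891 and 679 in sham CTL and 1435, 1509, 1594 and 1286 in sham DKO hearts. All 4 sham DKO hearts were above all 4 sham CTL hearts, with means of 1456 ± 131 and 894 ± 198 (SD, n = 4). The fold change was 1.65 (log2 fold change 0.73 ± 0.21 SE), but the limma adjusted p was 0.448, so it was not called. Of all probes, 3.89% had sham groups without overlap, and 4 of the 18 member probes did.

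After TAC *Slc40a1* ranged from 605 to 1100.3 with a median of 932 in CTL hearts and from 774 to 1824 with a median of 1370.3 in DKO hearts. The groups overlapped, and the log2 fold change of DKO over CTL was 0.55 ± 0.17 SE (limma adjusted p = 0.279). Groups without overlap were found for 0 of the 18 member probes after TAC and for 0.554% of all probes. Without TAC DKO replicate 4 the log2 fold change was 0.70 and the probe was called (limma adjusted p = 0.0433), and without TAC DKO replicates 2 and 3 it was 0.39 (limma adjusted p = 0.879). Over all alternatives the adjusted p ran from 0.0433 to 0.879 in TAC and from 0.0762 to 0.874 in sham hearts. TAC itself made no called difference in either genotype (log2 fold change -0.01 in CTL and -0.18 in DKO hearts). Centred on array medians these were -0.50 (limma adjusted p = 0.0594) and -0.65 (limma adjusted p = 0.0125), and the probe was then called lower in DKO hearts. The genes most like *Slc40a1* over 20 arrays, by deviations from the group means, were *Nme4* (0.83), *Plod3* (0.80), *Phkg1* (0.80), *Kcnv2* (0.80) and *Slc25a12* (0.79). The other *Slc40a1* probe, ILMN_1238359, lay below background.

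Ceruloplasmin, *Cp*, oxidises the iron that ferroportin releases. Its brightest probe, ILMN_2520239, was higher in sham DKO than in sham CTL hearts, at 585 ± 44.8 against 372 ± 67.3 (SD, n = 4; log2 fold change 0.67 ± 0.13 SE, limma adjusted p = 0.0254). By the probe of the highest mean, *Cp* was the 1 gene called between genotypes among the lists of iron uptake, storage, export and regulation. After TAC this probe measured 754 ± 115 in DKO and 549 ± 68.5 in CTL hearts (SD, n = 6; log2 fold change 0.45, limma adjusted p = 0.0615). Another *Cp* probe above background, ILMN_3083163, measured 469 in sham DKO and 327 in sham CTL hearts and was not called (log2 fold change 0.54, limma adjusted p = 0.742). Its log2 fold change of DKO over CTL after TAC was 0.24 (limma adjusted p = 0.686).

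*Alas1*, the housekeeping first enzyme of heme synthesis, was bright and moved little. Its probe measured 5939.9, 6612, 6355 and 6268 in sham CTL hearts and 5389, 5778, 5759.5 and 5275 in sham DKO hearts. The sham groups did not overlap, with a log2 fold change of DKO over CTL of -0.18 (limma adjusted p = 0.893). TAC CTL hearts had 5339.6 ± 578 and TAC DKO hearts 4941 ± 472 (SD, n = 6). The log2 fold change after TAC was -0.24 in CTL (limma adjusted p = 0.0293) and -0.17 in DKO hearts (limma adjusted p = 0.112), both under the fold of 1.5. Centred on array medians they were -0.71 and -0.64, and both were called.

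*Hmox1*, which opens the heme ring and is induced by heme and oxidative stress, was little above background in every group. It measured 74.5 ± 11.4 and 69.7 ± 3.94 (SD, n = 4) in sham CTL and sham DKO hearts and 74.2 ± 6.31 and 76.5 ± 11.6 (SD, n = 6) in TAC CTL and TAC DKO hearts. No comparison of it was called. By the same measure *Lysmd2* (0.80), *Tnik* (0.80), *Nde1* (0.80), *Kdm3a* (0.79) and *Dyrk1a* (0.78) were most like it, with 0.58 to 0.68 without the 2 arrays farthest from the median.

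Hepcidin, *Hamp*, made chiefly by the liver and to a small degree in the heart, lay at background on nearly all arrays. It measured 52.0, 50.6, 56.7 and 53.1 in sham CTL hearts, 49.1, 50.2, 53.4 and 43.1 in sham DKO hearts and 43.8 to 56.9 in TAC CTL hearts. TAC DKO hearts measured 50.3, 109, 119, 52.1, 50.9 and 46.2. Replicates 2 and 3 stood apart from every other array. The log2 fold change of DKO over CTL after TAC was 0.42 (limma adjusted p = 0.490), and 0.02 without those 2 hearts (limma adjusted p = 0.994).

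Replicates 2 and 3 of the TAC DKO group were also high in the atrial genes *Sln* and *Myl4*. *Sln*, which encodes the atrial calcium pump inhibitor sarcolipin, measured 409 and 1147 there, and *Myl4*, the atrial essential light chain, 1621 and 4917. *Myl7* and *Mybphl* separated these hearts less. *Myl7* measured 60.1 and 168, with 76.8 in TAC CTL replicate 4. *Mybphl* measured 1207 and 532, with 1152 in sham DKO replicate 3. Over the 10 atrial markers, the mean log2 deviation from the average of all arrays was 1.05 and 1.31 in these hearts and at most 0.26 elsewhere. The gene most like *Hamp* over 20 arrays was *Sln* (r = 0.94 for deviations from the group means), followed by *Myl4* (0.86), *Zc3h3* (0.86), *Kmt5b* (0.83) and *Gpc3* (0.78). Without the 2 hearts these were 0.36, 0.43, 0.44, 0.40 and -0.11. The summed level of the 10 atrial markers ranged from 3526 to 8710 in sham CTL, 8408 to 18938 in sham DKO, 9474 to 33427 in TAC CTL and 26519 to 36661 in TAC DKO hearts. Of 10 hepatocyte markers 3 lay above background. The summed level of all 10 was 526 to 574 in sham CTL, 546 to 590.3 in sham DKO, 552 to 574 in TAC CTL and 566 to 592 in TAC DKO hearts. The part of atrial or liver RNA in the *Hamp* values was not tested.

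**Figure D4:**
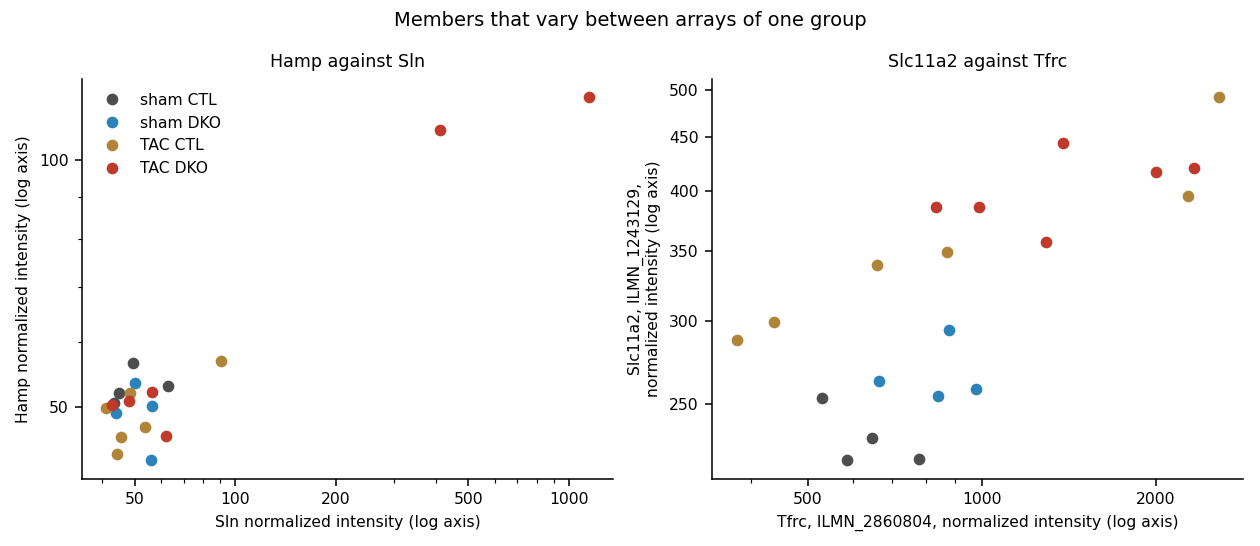
Normalized intensities of *Hamp* against *Sln* and of *Slc11a2* (probe ILMN_1243129) against *Tfrc* (probe ILMN_2860804), on log axes, with each point 1 array in the colour of its group. TAC DKO replicates 2 and 3 lie apart at *Sln* intensities of 409 and 1147, and the TAC CTL hearts of highest *Tfrc*, at 2279 and 2575, have the highest *Slc11a2* of their group.

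**Figure D5:**
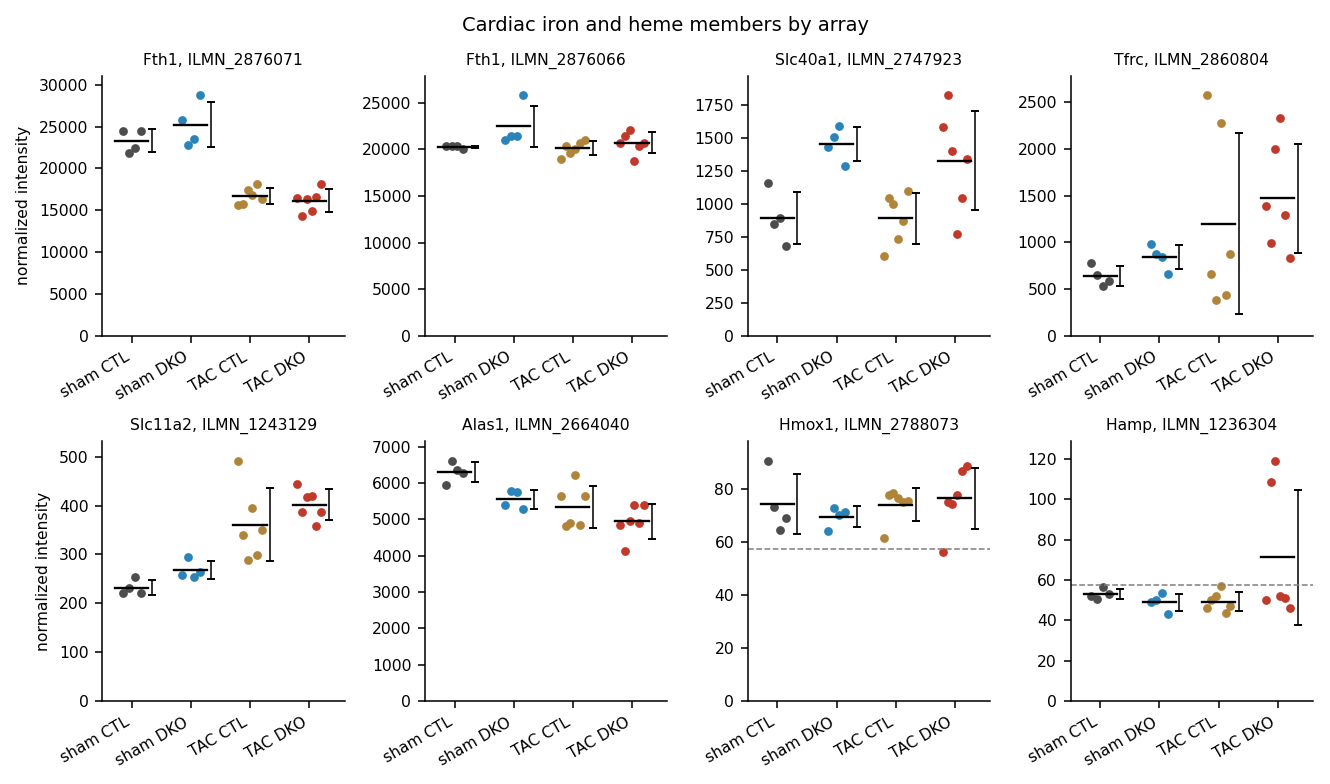
Normalized intensity (linear axis) of the iron and heme members outside blood on each array (points), with the group mean as a horizontal line and the SD as a bar beside it. The dashed line is the background level of 57.6. TAC DKO replicates 2 and 3 stand apart for *Hamp*, at 109 and 119, and all 4 sham DKO hearts lie above the sham CTL hearts for *Slc40a1*.

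The wider pathways were read from lists of genes, with the probe of the highest mean for each. The shares over all genes given above, 2.74% higher and 4.2% lower in CTL and 3.99% and 5.17% in DKO hearts, stand beside each count. The difference between the surgery effects of both genotypes was called for 0 genes of any list. A call in 1 genotype only is therefore not a called difference between genotypes. Of 6 heme synthesis genes other than the members, 0 were called in CTL hearts after TAC and 1 was lower in DKO hearts. This was *Cpox* (coproporphyrinogen oxidase), at 83.4 in sham DKO and 55.0 in TAC DKO hearts (limma adjusted p = 0.000316). The latter is below background, so its fold is not given. Of 14 genes of heme transport and breakdown other than *Hmox1*, 1 was higher and 2 lower in CTL and 1 higher and 1 lower in DKO hearts. *Flvcr2*, a membrane carrier of the heme transporter family, was higher in both genotypes (0.61 and 0.89), and *Pgrmc1*, a heme-binding membrane protein, was lower in both (-0.89 and -1.03). *Cd163*, the macrophage receptor for hemoglobin bound to haptoglobin, was lower in CTL hearts (-0.69, limma adjusted p = 0.0111). In DKO hearts *Cd163* had -0.45 (limma adjusted p = 0.0881). Of 14 macrophage markers, 1 was higher and 2 lower after TAC in each genotype. *C1qb* was higher (0.83 and 0.66) and *Lyve1* lower (-0.78 and -0.90) in CTL and DKO hearts. *Cd163* was lower in CTL hearts and *Adgre1* in DKO hearts (-0.94, limma adjusted p = 6.44e-05). In CTL hearts *Adgre1* had means of 181 after sham operation and 134 after TAC and was not called. The median of the macrophage list was 0.04 and -0.01, and its summed level ranged from 2283 to 4245 over all arrays.

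Of 12 iron uptake genes other than *Tfrc* and *Slc11a2*, 2 were higher after TAC in CTL and 1 in DKO hearts, and 0 were lower. These were *Lcn2* (lipocalin 2, which binds iron-carrying siderophores and is also a granulocyte and stress protein) with 1.38 and 1.31 (limma adjusted p = 0.00425 and 0.00515), and *Trf* (transferrin) with 0.63 in CTL hearts (limma adjusted p = 0.0156). Of 5 genes of iron storage other than *Fth1*, only *Ftl1* was called, lower in both genotypes. Of 2 genes of iron export other than *Slc40a1*, 0 were called after TAC. The brightest *Cp* probe had log2 fold changes of 0.57 and 0.36 (limma adjusted p = 0.000740 and 0.0232). Probe ILMN_3083163 of *Cp* had -0.03 and -0.33 (limma adjusted p = 0.927 and 0.174). Of 13 genes of hepcidin and iron regulation other than *Hamp*, 0 were higher, 1 was lower in CTL and 2 were lower in DKO hearts. *Hfe*, a partner of the transferrin receptor that bears on hepcidin, was lower in both (-0.59 and -0.73), though its second probe was not called. *Aco1* (iron regulatory protein 1) was lower in DKO hearts (-0.76). In CTL hearts *Aco1* had means of 121 after sham operation and 82.8 after TAC and was not called.

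Of 18 genes of mitochondrial iron and iron-sulfur clusters, 0 were higher and 2 lower in each genotype, the cluster assembly genes *Nfu1* (-1.40 and -1.48) and *Isca2*. *Isca2* measured 94.8 and 84.8 in sham CTL and sham DKO hearts and 56.8 and 52.9 after TAC, which is below background, so its fold is not given. *Mb* (myoglobin), the oxygen store of cardiomyocytes, was lower in DKO hearts (-0.63, limma adjusted p = 7.75e-06) and had -0.53 in CTL hearts, under the fold of 1.5, by its brightest probe. Its other probe, ILMN_1234662, was called lower in both, at -0.82 and -1.09 (limma adjusted p = 0.000335 and 9.10e-06). The 7 other targets of Nrf2, a regulator that also drives *Hmox1*, had a median log2 fold change after TAC of 0.23 in CTL and 0.27 in DKO hearts. Of these, *Nqo1* (0.61) and *Gclm* (0.59) were called higher in CTL hearts and *Prdx1* lower in DKO hearts (-0.64). Not called were *Nqo1* and *Gclm* in DKO hearts, with means of 297 and 202 after sham operation and 393 and 252 after TAC. *Prdx1* was not called in CTL hearts, with means of 5442 and 4493. The median log2 fold change after TAC over genes other than the members was -0.23 and -0.32 for heme synthesis, 0.12 and 0.28 for heme transport and breakdown, 0.44 and 0.32 for iron export (2 genes), 0.06 and 0.10 for iron uptake, 0.05 and 0.01 for storage and -0.14 and -0.17 for hepcidin and regulation in CTL and DKO hearts. For mitochondrial iron and iron-sulfur clusters it was 0.01 and -0.03. Over all genes it was 0.03 and 0.04.

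Markers of the cells of the ventricle moved as well, beside the lower values of *Ftl1*, *Fth1* probe ILMN_2876071, *Mb*, *Nfu1* and *Isca2*. Of 10 cardiomyocyte markers, 1 was higher and 3 lower after TAC in CTL hearts, and 0 were higher and 4 lower in DKO hearts, with median log2 fold changes of -0.33 and -0.46. Those lower were *Pln* (phospholamban, -1.64 and -1.93), *Tnni3* (cardiac troponin I, -1.37 and -1.47) and *Ryr2* (the calcium release channel, -0.85 and -0.96), with *Mb* in DKO hearts. *Mybpc3* (myosin binding protein C) was higher in CTL hearts (0.77). In DKO hearts *Mybpc3* had means of 6444 after sham operation and 9326 after TAC and was not called. The summed level of the list was 178321 to 187811 over the sham and 139327 to 170952 over the TAC arrays. Of 9 fibroblast markers, 2 were higher and 1 lower in CTL and 3 higher and 1 lower in DKO hearts, with *Col1a1* at 1.56 and 1.17, *Lum* at 0.97 and 0.80, *Col3a1* at -0.81 and -1.05 and *Tcf21* at 0.61 in DKO hearts. Of 11 endothelial markers, *Cldn5* was lower in CTL (-0.66) and *Vwf* higher in DKO hearts (0.78). Of 10 atrial markers, *Nppa* was higher (2.24 and 1.32) and *Stard10* lower (-0.76 and -0.97) in both, *Myl4* and *Gja5* were higher in DKO hearts (1.87 and 0.75), and *Stard10* was higher in DKO than in CTL hearts after either operation (1.12 and 0.91). The part of these cell types in the member values was not tested.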

How the data were processed

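The authors used GenomeStudio 2010.3 and deposited linear intensities of 45281 probes, with the background and normalization steps not given in the sources used here. After sorting each array, at least 97.5% of values were equal within 0.2% between sham arrays and at least 99.9% between TAC arrays, against 0.404% between the sets, so the sets had been quantile normalized apart. Here the intensities were log2 transformed without a constant and quantile normalized over 20 arrays, taking out a shift in medians of 0.30 (log2). limma 3.58.1 (R 4.3.3) fitted 1 mean for each group at every probe (16 residual and 6.64 prior degrees of freedom), with Benjamini-Hochberg adjustment over all probes. Fold changes are differences of log2 means, and means and SD are of linear values. Relations across arrays were tested with SciPy 1.17.1 by two-sided permutation, exact for 8 arrays and with 100000 resamples for 12. The number of arrays limits the precision. Groups came from the sample labels, and probes from their annotated symbol. The members and gene lists were chosen with earlier results of these data known. Named genes were the members, up to 4 called genes of each list per comparison and the 5 genes most like *Alas2*, *Hamp*, *Slc40a1* and *Hmox1*, with others marked in the text. The limma comparisons of DKO with CTL hearts were checked on simulated data with known changes. The planted changes were all larger than the reported differences of member probes between genotypes. The check therefore does not show how often differences of that size would be called. The comparisons of TAC with sham hearts, the interaction and the permutation tests were not checked in this way. Alternatives were other scalings, an offset of 50, other fits, a replicate block and leaving out each array.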

Additional observations from a re-analysis of the deposited data

Results flagged for a closer look

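Over 72 groups of member values, 4 had a highest or lowest array that stood apart, measured as its gap to the nearest array over the range of the group, and chance gives about 1 in 20 groups. Of these, 2 were in probe ILMN_2876066 of *Fth1*, where sham CTL replicate 4 was lowest (gap 1.0 of the range, intensity 20078 against an equal value on the other 3 arrays) and sham DKO replicate 4 was highest (gap 0.901 of the range, intensity 25820.0). *Hmox1* was lowest in TAC CTL replicate 1 (gap 0.823 of the range, intensity 61.6). The dim *Slc40a1* probe ILMN_1238359 was lowest in TAC CTL replicate 6 (gap 0.637 of the range, intensity 37.9), below background.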

How the results depend on the processing

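Of 2642 values of a member's fold change under another setting, 2562 kept their call or, where never called, moved by less than their standard error, 27 lost the call, 9 gained one, 44 that were never called moved by more, and 0 reversed a call. The sign differed in 67, with 0 of these called in either setting. With values centred on array medians, 4 instead of 7 member probes were called after TAC in DKO hearts, and *Alas2* and the brightest *Hbb-bt* probe had log2 fold changes of 0.38 and 0.28 there (limma adjusted p = 0.168 and 0.141), while in CTL hearts they had 0.68 and 0.59 and were called. *Hba-a1* lost its call in both genotypes, at 0.50 and 0.42. The cause was not tested. Leaving out 1 array, the number of member probes called ran from 5 to 6 after TAC in CTL hearts, from 4 to 7 in DKO hearts (4 without sham DKO replicate 1) and from 0 to 1 between genotypes in TAC hearts (1 without TAC DKO replicate 4, *Slc40a1*). It stayed at 0 for the sham genotype comparison and the interaction. Without the 2 farthest arrays, 0 instead of 3 relations among blood-derived genes passed, with 6 arrays left.

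With the replicate number as a block, 0 member probes were called between genotypes, and *Slc40a1* had an adjusted p of 0.0987 in sham and 0.0601 in TAC hearts from limma. Same-numbered arrays had deviations with r from 0.0138 to 0.218 in sham and from -0.186 to 0.380 in TAC hearts, so the numbers were not taken to pair mice. For TAC against sham a number within a surgery gives no block, so the number was shared across surgeries, a setting chosen after seeing the data, and 6 member probes were called in CTL and 8 in DKO hearts, where *Tfrc* probe ILMN_2619848 was added. The blood index as covariate was run for the 12 probes outside blood. The model without TAC DKO replicates 2 and 3 was chosen after seeing the data. Probes near background, as for *Hamp* and *Hmox1*, limit what small changes could be seen.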
